A study of Mus musculus with 6 samples.

Results

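The ADAMTS proteases are secreted zinc-dependent enzymes that trim the extracellular matrix. 10 of their genes were listed by symbol, and a gene was counted as measured where a probe set of the array carried that symbol alone. 9 of the 10 had such a probe set, 1 each, among the 22180 genes tested. The exception was Adamts2, which is not analysed here. The genes were measured in fibroblasts cultured from lungs of adult mice of mixed strain that carried UBCCreERT and RSmoM2. RSmoM2 is an allele for a constitutively active Smoothened, the transducer of hedgehog signals at the cell membrane, and stays silent until the Cre fusion protein is activated. The fusion protein is driven by a ubiquitin promoter, so no cell type is singled out. The 2 groups were 3 wells given 4-hydroxytamoxifen (4OHT, an active tamoxifen metabolite) at 1 µg/ml for 48 h and 3 wells given vehicle. All 6 arrays carried the same alleles and the same animal number in their labels, and no label assigns the wells to different mice. A p-value here thus reflects well-to-well spread alone, which may be technical. Because no wells lacking the alleles were compared, the drug, the active Cre and the active Smoothened cannot be told apart.

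An ADAMTS protease is made with a propeptide that proprotein convertases remove. A catalytic domain is followed by a disintegrin-like domain and by thrombospondin type 1 repeats, and the repeats and the domains after them help to hold the enzyme at its substrate. One branch, with Adamts1, Adamts4, Adamts5, Adamts9 and Adamts15, cleaves the large hyaluronan-binding proteoglycans versican and aggrecan. A second, with Adamts2, Adamts3 and Adamts14, removes the aminopropeptides of fibrillar procollagens. Adamts7 and Adamts12 cleave cartilage oligomeric matrix protein, and Adamts6 and Adamts10 act around fibrillin microfibrils. In lung these enzymes shape the provisional and elastic matrix that fibroblasts lay down.

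4 of the 9 genes fell in 4OHT wells, 1 rose and 4 did not pass the test. Those that fell were Adamts1 (1.61-fold lower), Adamts12 (1.26-fold), Adamts9 (1.22-fold) and Adamts10 (1.16-fold), and the one that rose was Adamts15 (1.22-fold higher). A call is an adjusted p under 0.05 by limma, with Benjamini-Hochberg adjustment over all genes tested, and 12.0% of all genes were called at that threshold (6.62% lower and 5.38% higher). The median log2 fold change, taken as 4OHT minus vehicle throughout, was -0.12 over the 9 genes and -0.0051 over all genes tested. All values per array below are log2 expression as deposited, after background correction and quantile normalization by RMA (robust multi-array average). Levels of different probe sets are not compared with each other.

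The upstream sequences of Adamts1 and Adamts12 are shown because these 2 genes had the lowest p-values of the 9. They come from a set of RefSeq promoter sequences on build GRCm38.p6, and this set held entries for 4 of the 10 listed genes. Each covers the 250 bases before the annotated start, at chr16:85803114-85803363 on the minus strand for Adamts1 and chr15:11064523-11064772 on the plus strand for Adamts12, written 5′ to 3′ along the gene. Capitals mark a TATA-box match.
Adamts1: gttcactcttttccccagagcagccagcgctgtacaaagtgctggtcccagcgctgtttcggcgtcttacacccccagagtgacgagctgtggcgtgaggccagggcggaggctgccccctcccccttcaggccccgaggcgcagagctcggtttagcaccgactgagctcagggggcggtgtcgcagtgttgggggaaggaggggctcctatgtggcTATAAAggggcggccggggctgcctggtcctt
Adamts12: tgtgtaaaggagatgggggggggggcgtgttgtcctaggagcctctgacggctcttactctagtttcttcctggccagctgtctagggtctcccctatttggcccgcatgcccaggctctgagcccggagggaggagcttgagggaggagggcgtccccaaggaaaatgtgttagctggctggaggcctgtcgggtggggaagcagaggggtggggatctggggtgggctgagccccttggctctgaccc

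Both strands of these windows were searched for 4 motifs. The letters TATAAA were found once in the Adamts1 window, with the first base at -32 from the start, and were not found in the Adamts12 window. They were found in 12.4% of 32851 windows of the same length in that promoter set. The Gli motif GACCACCCA (0.225% of windows), the AP-1 motif TGANTCA (6.75%) and the cyclic AMP response element TGACGTCA (1.55%) were in neither window. None of the 4 motifs contains another. GC content was 65.6% for Adamts1 and 63.2% for Adamts12. A match or its absence describes these letters in these windows and says nothing about binding.

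**Figure D1:**
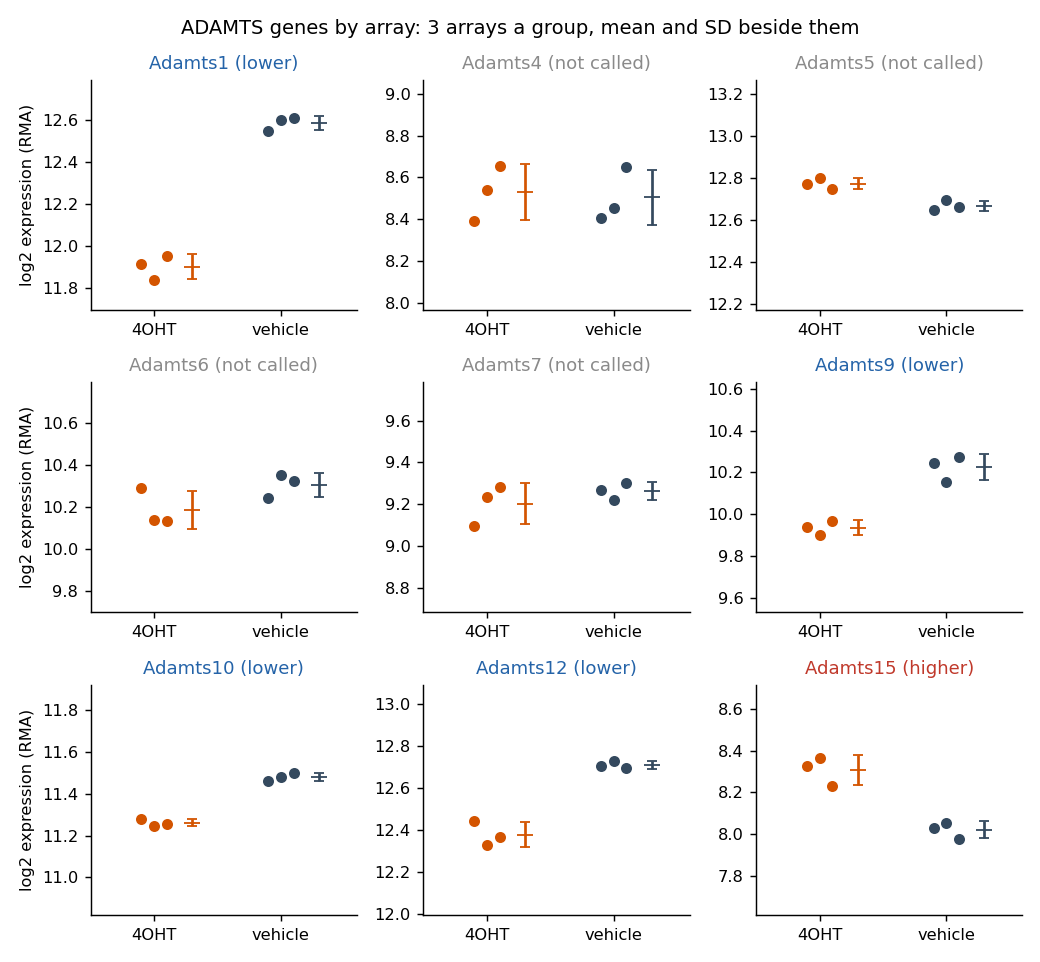
Log2 expression of the 9 ADAMTS genes measured, with 1 point per array, 4OHT left of vehicle, and the mean with its SD beside the points (n = 3 each). Every panel spans the same range of log2 units, so distances can be compared between panels, and the widest gap between groups is that of Adamts1, whose 4OHT arrays lie between 11.84 and 11.95 and vehicle arrays between 12.55 and 12.61.

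Among the listed proteases that cleave versican and aggrecan, 2 fell, 1 rose and 2 did not pass. Adamts1, an enzyme that trims versican and is needed for ovulation in mice, had a log2 expression of 11.91, 11.84 and 11.95 in 4OHT wells, against 12.55, 12.60 and 12.61 in vehicle wells. The lowest vehicle array stood clear of the highest 4OHT array. Adamts1 averaged 11.90 ± 0.06 in 4OHT wells and 12.59 ± 0.04 in vehicle wells (SD, n = 3 each; log2 fold change -0.69, SE 0.050, 95% interval -0.80 to -0.57, limma adjusted p = 0.000589). Leaving out any of the 6 arrays kept this call, with an adjusted p of at most 0.00525. In size its fold change lay at the 98.5th percentile of all genes tested.

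Adamts9, a conserved protease that trims versican and is also needed to form primary cilia in cultured cells, had a log2 expression of 9.94, 9.90 and 9.97 in 4OHT wells and 10.24, 10.16 and 10.28 in vehicle wells. The groups did not overlap. The log2 fold change was -0.29 (SE 0.050, 95% interval -0.41 to -0.17, limma adjusted p = 0.0137). The call was lost without 4OHT replicate 1 (adjusted p = 0.0514), 4OHT replicate 2 (0.0617) or vehicle replicate 1 (0.0521).

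Adamts15, another versican-cleaving enzyme, was the 1 gene of the 9 called higher. Its log2 expression was 8.33, 8.37 and 8.23 in 4OHT wells and 8.03, 8.06 and 7.98 in vehicle wells, again without overlap. The log2 fold change was 0.29 (SE 0.053, 95% interval 0.16 to 0.41, limma adjusted p = 0.0176). Only 4OHT replicate 3 could be left out with the call kept, since it was lost without 4OHT replicate 1 (adjusted p = 0.0648), 4OHT replicate 2 (0.0706), vehicle replicate 1 (0.0559), vehicle replicate 2 (0.0524) or vehicle replicate 3 (0.0537).

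Adamts5, the main aggrecan-degrading protease of mouse cartilage, had a log2 expression of 12.77, 12.80 and 12.75 in 4OHT wells and 12.65, 12.69 and 12.66 in vehicle wells. All 4OHT arrays lay above all vehicle arrays, but the difference of 0.11 (95% interval 0.0063 to 0.21) did not pass after adjustment (limma adjusted p = 0.166). Adamts5 is the next protein-coding gene to Adamts1 in the RefSeq table, and the 95% intervals of their fold changes do not overlap, although the difference between the 2 genes was not tested. Adamts4, the other classic aggrecanase, varied most within groups, with 8.39, 8.54 and 8.66 in 4OHT wells and 8.41, 8.45 and 8.65 in vehicle wells. The groups overlapped almost completely, and the log2 fold change of 0.03 had a 95% interval of -0.19 to 0.24 (limma adjusted p = 0.898). Its sign turned without 4OHT replicate 3 (-0.04) or vehicle replicate 1 (-0.02).

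Of the pair that cleaves cartilage oligomeric matrix protein, Adamts12 fell and Adamts7 did not pass. Adamts12 had a log2 expression of 12.44, 12.33 and 12.37 in 4OHT wells, against 12.71, 12.73 and 12.69 in vehicle wells, with no overlap. It averaged 12.38 ± 0.06 in 4OHT wells and 12.71 ± 0.02 in vehicle wells (SD, n = 3 each; log2 fold change -0.33, SE 0.048, limma adjusted p = 0.00691). With any 1 of the 6 arrays left out its adjusted p was at most 0.0365. Adamts7, a protease of vascular smooth muscle and cartilage with a mucin-like segment like that of Adamts12, had 9.09, 9.23 and 9.28 in 4OHT wells and 9.27, 9.22 and 9.30 in vehicle wells. These groups overlapped (log2 fold change -0.06, 95% interval -0.21 to 0.09, limma adjusted p = 0.599).

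Of the 2 listed genes linked to microfibrils, Adamts10 fell and Adamts6 did not pass. Adamts10, which binds fibrillin and is mutated in human Weill-Marchesani syndrome, had a log2 expression of 11.28, 11.25 and 11.26 in 4OHT wells and 11.46, 11.48 and 11.50 in vehicle wells. Both groups were tight and lay apart. Its log2 fold change of -0.22 (SE 0.040, limma adjusted p = 0.0177) was the smallest of the 5 called. The call was kept without 4OHT replicate 3 and lost without 4OHT replicate 1 (adjusted p = 0.0525), 4OHT replicate 2 (0.0759), vehicle replicate 1 (0.0510), vehicle replicate 2 (0.0683) or vehicle replicate 3 (0.0510). Adamts6, a close relative needed for heart development in mice, had 10.29, 10.14 and 10.13 in 4OHT wells and 10.24, 10.35 and 10.32 in vehicle wells. 4OHT replicate 1 overlapped the vehicle arrays (log2 fold change -0.12, 95% interval -0.26 to 0.03, limma adjusted p = 0.277).

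In 6 of the 9 genes, the 5 called and Adamts5, the arrays of the groups did not overlap, with 4 lower and 2 higher in 4OHT wells. This was so for 32.7% of all genes tested (17.8% lower and 15.0% higher). Leaving out 4OHT replicate 1, 4OHT replicate 2 or vehicle replicate 1 left 2 genes called lower and none higher, Adamts1 and Adamts12. Without vehicle replicate 2 or vehicle replicate 3 there were 3 lower and none higher, the third being Adamts9. These counts come from limma fits at 5 arrays, in which between 734 and 1340 of all genes were called lower and between 486 and 986 higher, so the whole table lost calls too.

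**Figure D2:**
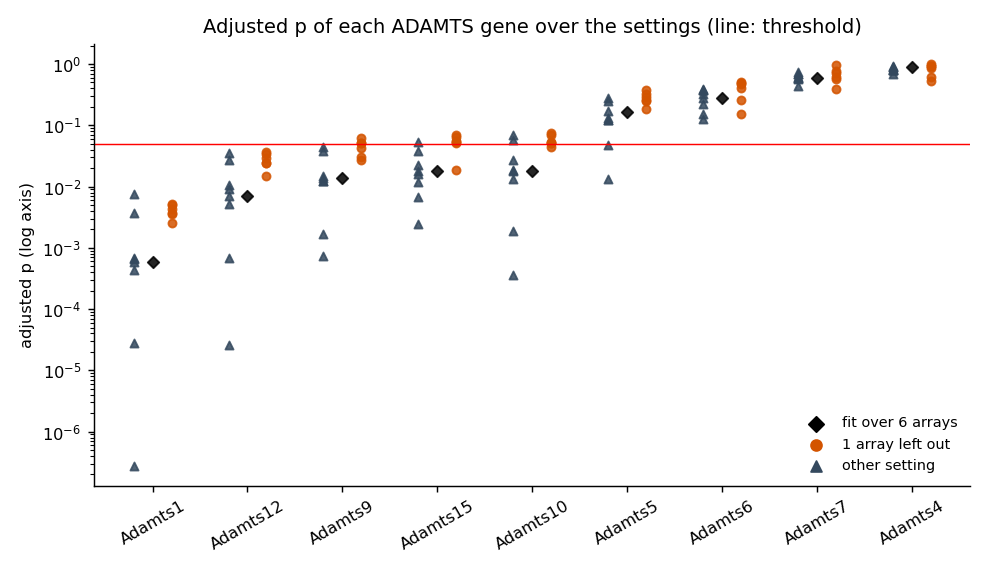
Adjusted p of each of the 9 ADAMTS genes on a log axis, ordered by p, for the limma fit over 6 arrays (diamonds), the 6 fits with 1 array left out (circles) and the 8 other settings (triangles), with the threshold of 0.05 as a line. All points of Adamts1 and Adamts12 lie under the line, while those of Adamts9, Adamts15 and Adamts10 cross it. Those of Adamts5, not called over 6 arrays, cross it too. Its limma adjusted p was 0.0472 among genes above the median level and 0.0135 with trended and robust eBayes.

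The rest of the family was measured on the same arrays. Of 9 further ADAMTS genes, 4 fell and none rose, which brings the 18 measured in all to 8 lower, 1 higher and 9 that did not pass, with a median log2 fold change of -0.09. Adamts16, a protease studied in kidney and blood pressure, was 2.23-fold lower, with 7.20, 6.88 and 7.03 in 4OHT wells and 8.09, 8.13 and 8.36 in vehicle wells (log2 fold change -1.16, SE 0.10, limma adjusted p = 0.00121). That is a larger fall than any of the 9 listed genes measured. The procollagen aminopropeptidases Adamts3 and Adamts14 fell too, by 0.65 (SE 0.077) and 0.47 (SE 0.062) on the log2 scale (limma adjusted p = 0.00338 and 0.00507). With the mean of its probe sets in place of the brightest, the log2 fold change of Adamts14 was -0.26 (limma adjusted p = 0.0204). Adamts2, the third enzyme of that branch, is the listed gene that was not analysed. Adamts17, a relative of the microfibril group, fell by 0.32 (limma adjusted p = 0.0243), but missed the threshold once 4OHT replicate 1 (adjusted p = 0.0701), vehicle replicate 1 (0.0801), vehicle replicate 2 (0.0535) or vehicle replicate 3 (0.0708) was left out. For Adamts8, the neighbour of Adamts15 in the RefSeq table, the log2 fold change was -0.04 (limma adjusted p = 0.852).

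**Figure D3:**
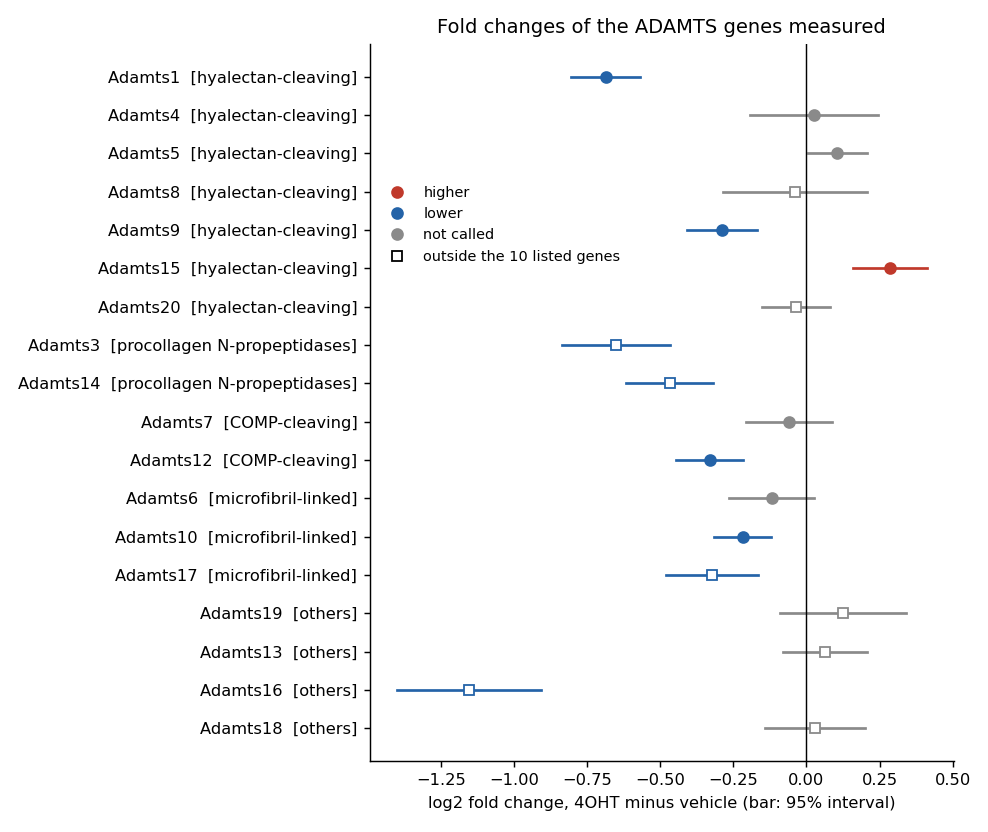
Log2 fold change, 4OHT minus vehicle, with its 95% interval for the 18 ADAMTS genes measured, grouped by known substrate. Filled circles are the listed genes and open squares the others, and the colour gives the call. Adamts16 (-1.16) and Adamts1 (-0.69) lie farthest below 0 and Adamts15 (0.29) is the gene called above it.

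The ADAMTS-like proteins have the accessory domains of the family without a protease, and some of them sit on microfibrils. Of 7 measured, 5 fell, 1 rose and 1 did not pass, with a median log2 fold change of -0.28. Adamtsl1 fell by 0.70 (limma adjusted p = 0.000373), Adamtsl2, which binds the latent TGF-beta binding protein LTBP1, by 0.52 (0.00133) and Thsd4, which encodes a fibrillin-binding protein, by 0.44 (0.00608). Adamtsl5 went the other way. It had 10.32, 10.45 and 10.42 in 4OHT wells, against 9.19, 9.20 and 9.23 in vehicle wells, which is 2.28-fold higher (log2 fold change 1.19, SE 0.050, limma adjusted p = 0.000164). With any 1 of the 6 arrays left out, between 4 and 5 of the group were lower and 1 was higher.

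The substrates of the versican and aggrecan branch moved in opposite directions. Vcan, which encodes versican, had a log2 expression of 9.82, 9.79 and 9.65 in 4OHT wells, against 9.38, 9.40 and 9.43 in vehicle wells, a rise of 1.27-fold (log2 fold change 0.35, SE 0.057, limma adjusted p = 0.0117) that was lost without 4OHT replicate 2 (adjusted p = 0.0536). Acan, which encodes aggrecan, had 10.57, 10.48 and 10.56 in 4OHT wells and 11.53, 11.54 and 11.56 in vehicle wells, and was 2.0-fold lower (log2 fold change -1.0, SE 0.046, limma adjusted p = 0.000188). The link protein gene Hapln3 fell by 0.32 (limma adjusted p = 0.0202), but missed the threshold once vehicle replicate 1 (adjusted p = 0.0656), 2 (0.0658) or 3 (0.0595) was left out. The other 6 of the 9 genes of hyalectans, link proteins and biglycan did not pass, and the list's median log2 fold change was -0.01. Transcript levels do not show whether any of these proteins was cleaved.

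For the procollagen branch, of 13 measured genes of fibrillar procollagens and their processing enzymes, 4 fell and none rose, with a median log2 fold change of -0.08. Col3a1, a fibrillar collagen chain, fell by 0.29 (SE 0.045, limma adjusted p = 0.00936), while Col1a1, the main chain of collagen I, differed by -0.03 on that scale (95% interval -0.12 to 0.06, limma adjusted p = 0.688). Col11a1, the protease gene Tll1 and the procollagen enhancer gene Pcolce2 were the others called, by 0.23 to 0.26 lower on the log2 scale. Their calls were lost without 4OHT replicate 2 (adjusted p = 0.0937 for Col11a1, 0.136 for Tll1 and 0.106 for Pcolce2) or vehicle replicate 2 (0.0850, 0.102 and 0.0928). The Col11a1 call was also lost without 4OHT replicate 3 (0.0640) or vehicle replicate 1 (0.0696), that of Tll1 without 4OHT replicate 1 (0.129), vehicle replicate 1 (0.111) or vehicle replicate 3 (0.103), and that of Pcolce2 without 4OHT replicate 1 (0.0931) or vehicle replicate 3 (0.0720). Leaving out 1 array left between 1 and 3 of the list lower.

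Of 9 microfibril genes measured, 7 fell and none rose, with a median log2 fold change of -0.23, while Fbn1 had no probe set of its own symbol and is not analysed here. Ltbp4 and Ltbp2, for latent TGF-beta binding proteins that attach to fibrillin, were 1.31-fold and 1.28-fold lower (limma adjusted p = 0.00196 and 0.00279). Emilin1, an elastic fibre glycoprotein gene, fell by 0.42 (limma adjusted p = 0.00439) and Mfap2, which encodes a microfibril-associated glycoprotein, by 0.33 (0.00590). These 4 passed with any 1 of the 6 arrays left out, and 4 of the list were lower in each of those fits. Of 5 measured genes of cartilage oligomeric matrix protein and the thrombospondins, none was called by limma. An unadjusted limma p under 0.05 was found for 5858 of all 22180 genes tested and for 4 of these 5. Other settings called 3 lower with array weights, 2 when eBayes was trended and robust, 2 among genes above the median level and 1 without 4OHT replicate 3. The median log2 fold change was -0.15. In all 5 the groups lay apart in the direction of a fall, which held for 17.8% of all genes tested. For Comp itself the difference was -0.23 (95% interval -0.38 to -0.07, limma adjusted p = 0.0734, and from 0.0188 to 0.208 over the other settings).

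**Figure D4:**
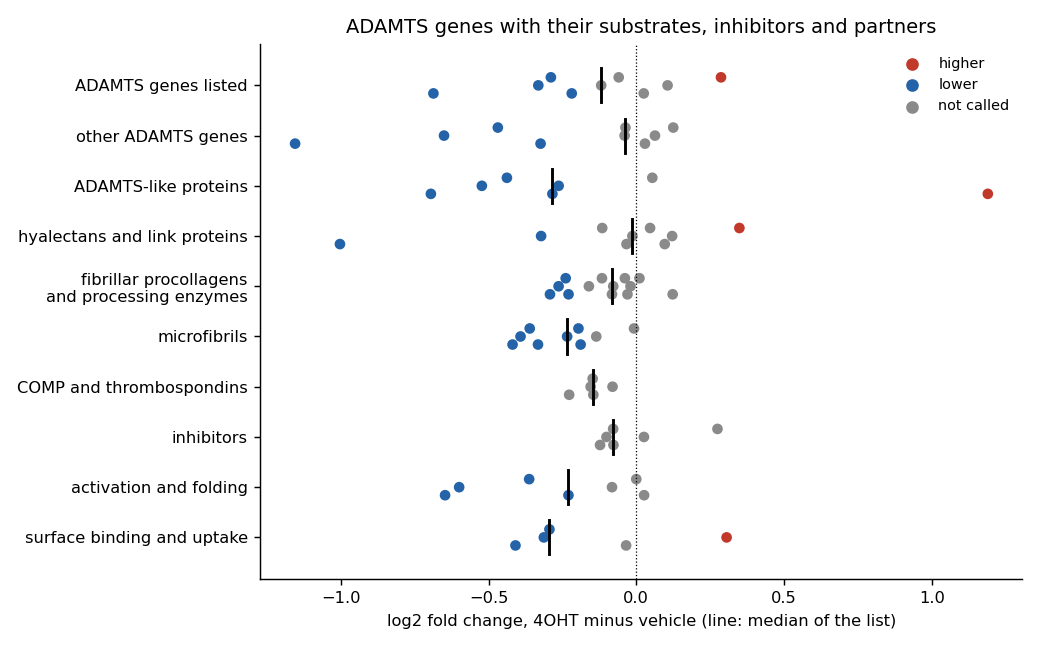
Log2 fold change, 4OHT minus vehicle, of the listed ADAMTS genes and of 9 lists of relatives, substrates, inhibitors and partners, with 1 point per gene coloured by its call and a line at the list's median. The medians lie between -0.29 for surface binding and uptake and -0.01 for hyalectans and link proteins, and single genes such as Adamtsl5 (1.19) and Acan (-1.0) lie far from the median of their list.

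Calls among genes that act on the proteases themselves were mostly lower. Of 7 measured genes of activation and folding, 4 fell and none rose, with a median log2 fold change of -0.23. Pcsk5 and Pcsk6, proprotein convertase genes, fell by 0.65 and 0.36 on the log2 scale (limma adjusted p = 0.00375 and 0.00467), and Mmp17, a membrane-anchored metalloproteinase that activates Adamts4, by 0.60 (0.00179). Pofut2, which adds fucose to thrombospondin repeats and is needed for secretion of ADAMTS proteases, fell by 0.23 (limma adjusted p = 0.0212). Pofut2 missed the threshold with 4OHT replicate 1 (adjusted p = 0.0702), 4OHT replicate 2 (0.0615), vehicle replicate 1 (0.0676) or vehicle replicate 2 (0.0823) left out. For Furin, the convertase most often tied to ADAMTS maturation, the log2 difference was -0.08 (95% interval -0.18 to 0.01, limma adjusted p = 0.258).

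None of 6 measured inhibitor genes was called by limma (1 at an unadjusted p under 0.05, and 2 lower when eBayes was trended and robust). Of all 22180 genes tested, 5858 had an unadjusted limma p under 0.05. Timp3, which encodes the tissue inhibitor that blocks Adamts4 and Adamts5, had 13.83, 13.84 and 13.81 in 4OHT wells and 13.92, 14.02 and 13.90 in vehicle wells. The groups lay apart by little (log2 fold change -0.12, 95% interval -0.24 to -0.0054, limma adjusted p = 0.172). Of 5 genes for surface binding and uptake, 3 fell and 1 rose. Sdc4, which encodes a heparan sulphate proteoglycan of the cell surface, fell by 0.41 (limma adjusted p = 0.00611) and Sdc1 by 0.31 (0.0117), though Sdc1 missed the threshold with 4OHT replicate 2 left out (adjusted p = 0.0534) and with the mean of its probe sets, at a log2 fold change of -0.19 (adjusted p = 0.0606). Lrp1, the endocytic receptor that clears Adamts4 and Adamts5, rose by 0.31 (SE 0.070, limma adjusted p = 0.0362), while its chaperone gene Lrpap1 fell by 0.29 (0.0110). The Lrp1 call was lost without 4OHT replicate 1 (adjusted p = 0.110), 4OHT replicate 2 (0.124), vehicle replicate 1 (0.0790), vehicle replicate 2 (0.117) or vehicle replicate 3 (0.0894).

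Pearson's r over the 6 arrays was used to find the genes most like the 2 with the lowest p-values. For Adamts1 these were Prss35, a serine protease-like gene (r = 0.9995), the Notch target gene Heyl (0.999) and the kinetochore gene Kntc1 (0.999), and 218 of all genes had r over 0.99. For Adamts12 they were Adam23 (0.999), the semaphorin gene Sema3c (0.997) and the zinc transporter gene Slc30a6 (0.997). The 6 arrays fall in 2 groups that differ, so these values describe likeness over few points and are not tested.

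Markers of fibroblasts and of other cells were measured in the cultures. None of 8 fibroblast markers was called by limma (2 at an unadjusted p under 0.05, against 5858 of all 22180 genes tested). The mean log2 expression of the 8 ranged from 12.41 to 12.44 in 4OHT wells and from 12.47 to 12.49 in vehicle wells. Other settings called some of them. Lum was lower with the replicate number as a block, among genes above the median level and when eBayes was trended and robust. The last 2 settings also called Pdgfrb higher, and the last called Col1a2 lower. Among 7 smooth muscle and pericyte markers, 5 fell beside Adamts1, Adamts9, Adamts10 and Adamts12, and their mean ranged from 11.44 to 11.49 in 4OHT wells and from 11.89 to 11.91 in vehicle wells. Of 4 mesothelial markers, 1 rose and 2 fell (means from 11.55 to 11.58 in 4OHT wells and from 11.71 to 11.75 in vehicle wells). Endothelial markers gave 2 higher and 3 lower of 6 (6.71 to 6.74 in 4OHT wells and 6.89 to 7.04 in vehicle wells), macrophage markers 1 higher and 1 lower of 6 (7.32 to 7.46 in 4OHT wells and 7.35 to 7.42 in vehicle wells), and epithelial markers 1 lower of 6 (6.35 to 6.43 in 4OHT wells and 6.43 to 6.48 in vehicle wells). Some of these marker genes, named after their values were seen, missed the threshold when an array was left out. Kdr did so with any 1 of the 6 left out (adjusted p from 0.0842 to 0.139), so that 1 endothelial marker, Tek, was higher in each such fit. Pecam1 did so with 4OHT replicate 1 (0.0655) or 2 (0.0741) left out, Emcn with 4OHT replicate 2 (0.0536) or vehicle replicate 3 (0.0529), and the mesothelial marker Msln with 4OHT replicate 1 (0.0525) or 2 (0.0593). The macrophage marker Lyz2 passed with vehicle replicate 1 left out and missed the threshold with any of the other 5 left out (0.0772 to 0.129). An array has no true 0, so no marker can be called absent, and a dim one cannot be called present. The part of these cells in the ADAMTS results was not tested, and fewer cells of a type cannot be told apart from less RNA per cell.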

How the data were processed

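Total RNA (100 ng) was labelled for single-colour arrays, per the labels' protocols. The deposited values are log2 expression per probe set, made with oligo and RMA, which with limma are the tools given, without versions, per the submitters' processing notes. RMA brings the arrays' distributions together, so a shift of all genes one way would be largely removed, and it compresses fold changes of dim probe sets. Array medians over the genes tested still ranged from 7.437 to 7.452 in 4OHT wells and from 7.452 to 7.473 in vehicle wells. Over all probe sets they ran the other way, from 6.725 to 6.776 in 4OHT wells and from 6.695 to 6.717 in vehicle wells. Of 41345 probe sets, 23521 had 1 gene symbol, 1814 several and 16010 none in the platform annotation. Probe sets with 1 symbol were tested, and the one with the highest mean represented a gene, which gave 22180 genes. No dim genes were removed. Arrays of a group correlated at r = 0.997 to 0.998 and arrays of different groups at 0.995 to 0.996 across genes, none repeated another, and their number limits the precision.

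The comparison of 4OHT with vehicle used limma 3.58.1 under R 4.3.3 (lmFit and eBayes, no trend, two-sided, Benjamini-Hochberg). The test was tried on simulated data. The ADAMTS genes, the gene lists and the tests were chosen with earlier results of these data known. The text names the 10 genes, up to 4 called genes a list by p, and Vcan, Col1a1, Fbn1, Comp, Timp3, Furin and Lrp1. It also names the 3 genes most like each of the 2 with the lowest p. Adamts8 and Adamts20 were named after their values were seen. The motifs and the grouping by substrate were chosen after values were seen. Deviations of same-numbered wells from their group means correlated at r from -0.02 to 0.06 over genes. Those of differently numbered wells correlated at -0.08 to 0.03. These small values do not exclude pairing. The numbers were not taken as pairs in the main fit, and a fit with them as a block is given below.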

Additional observations from a re-analysis of the deposited data

How the results depend on the processing

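The limits lie in 3 arrays a group. Of the 5 calls among the ADAMTS genes, those of Adamts1 and Adamts12 held in all 14 other fits run, while Adamts9, Adamts15 and Adamts10 were lost in some. The replicate number as a block left 1 higher and 3 lower ADAMTS genes, Adamts10 being lost (adjusted p = 0.0687), and 19 genes lower against 29 over the 9 lists of relatives, substrates, inhibitors and partners together. A further setting was a new limma fit and adjustment over all probe sets. That fit and the block each also lost Adamts17, Hapln3, Col11a1, Tll1, Pcolce2, Fbn2, Ltbp1, Mfap5, Pofut2 and Lrp1 from those lists. The fit over all probe sets left 0 higher and 3 lower ADAMTS genes by limma (Adamts15 at 0.0527 and Adamts10 at 0.0572). With only genes above the median level, or with a trended and robust estimate, 2 were higher because Adamts5 passed (0.0472 and 0.0135). At an adjusted p under 0.01, 0 were higher and 2 lower. Leaving out 1 array gave 0 to 1 higher and 2 to 4 lower, and 1 to 3 higher and 19 to 26 lower over those 9 lists. The log2 fold change of Adamts4 ranged from -0.038 to 0.099 with 1 array left out, being below 0 without 4OHT replicate 3 or vehicle replicate 1. The causes were not tested. Leaving out 1 array brings fewer arrays, and the fit over all probe sets brings a larger number of tests. Over all genes, 1193 higher and 1469 lower became 648 and 920 with the block, 1828 and 2295 with the trended estimate and 571 and 818 over all probe sets. Centring the arrays on their medians gave 1406 higher and 1288 lower, so lower calls no longer outnumbered higher ones. Quantile normalization applied again gave 1378 higher and 1404 lower. Neither setting changed a call among the ADAMTS genes. Over the 9 lists, centring left 27 lower, with Fbn2 and Ltbp1 lost, and the second normalization 28, with Ltbp1 lost.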
